A study of Rattus norvegicus with 32 samples.

Results

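Of the 32623 genes in the count files, 10 genes of endothelial fatty acid handling were followed in rat liver sinusoidal endothelial cells (LSECs). They were chosen by symbol alone and each symbol matched 1 gene. They comprise the 3 peroxisome proliferator-activated receptors Ppara, Ppard and Pparg; the lipases Lpl and Lipg with the LPL anchor Gpihbp1 and the LPL inhibitor Angptl4; the fatty acid binding protein Fabp4; the mitochondrial carnitine transferase Cpt1a; and the lipid droplet coat protein Plin2. LSECs line the liver sinusoids and were isolated after perfusion and digestion of the liver on an iodixanol density gradient, with no marker-based sort in the labels. Poly(A) RNA was sequenced in 32 libraries.

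The CCl4 experiment used male Wistar Han rats and holds 22 libraries. Untreated rats gave the healthy group (n = 6), and inhaled carbon tetrachloride (CCl4), a hepatotoxin, gave the acute group after 2 weeks (n = 5), the fibrosis group after 6 weeks (n = 5) and the cirrhosis group after 12 to 14 weeks (n = 6). Drinking water in this model held phenobarbital, which the sources do not separate by group. The thioacetamide (TAA) experiment holds 10 libraries, 5 labelled control and 5 labelled TAA control. Its labels give Wistar Han as the strain, while the design text names Sprague-Dawley rats, a healthy group and a TAA-cirrhotic group. The labels do not settle which group received TAA, so no disease direction is given there. Ages were not given in the sources used here.

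Circulating triglycerides are hydrolysed at the endothelial surface. GPIHBP1 carries lipoprotein lipase (LPL) across capillary endothelial cells and holds it at the lumen, ANGPTL4 inactivates LPL, and endothelial lipase (LIPG) acts mainly on phospholipids of high-density lipoproteins. Fatty acids inside the cell are bound by proteins such as FABP4, stored in droplets coated by PLIN2, or sent to mitochondrial oxidation through CPT1A. PPARs are nuclear receptors that sense fatty acids and bind DNA with a retinoid X receptor (RXR). ANGPTL4, CPT1A, PLIN2 and FABP4 are known PPAR target genes.

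Values are CPM, counts scaled to a common library size with TMM factors, and a gene was called changed when its adjusted p-value (limma-voom, Benjamini-Hochberg over all genes tested) was under 0.05 and its fold-change exceeded 1.5. Library totals ranged from 25646531 to 46464289 counts. Summed CPM of 11 LSEC markers ranged from 15810 to 31050 in healthy, 4053 to 4877 in acute, 2840 to 3789 in fibrosis and 16520 to 21150 in cirrhotic libraries. The LSEC markers did not all change alike. Mean Cdh5 was 1294 CPM in healthy, 1597 in acute and 1040 in fibrosis, and it was not called in either stage. Lyve1 was not called in acute (log2 -0.49). Mean Stab1 was 4959 CPM in healthy, 148.9 in acute and 163.2 in fibrosis. Of these 11 markers, 9 fell in acute and 10 in fibrosis LSECs, and none was under 0.1 CPM in all libraries of a group. Genes of dissociation stress (immediate early and heat shock genes) moved the same way, from 24440 to 58730 summed CPM in healthy to 786 to 4333 in acute and 3525 to 5868 in fibrosis, and 20740 to 37750 in cirrhosis. Hepatocyte markers ranged from 749 to 18080 in healthy, from 86.5 to 781 in acute, from 1020 to 4259 in fibrosis and from 1670 to 11280 in cirrhotic libraries. From the summed markers of these bulk libraries, fewer cells of a type and less RNA per cell cannot be told apart. Which of these lay behind the unequal falls of the LSEC markers was not tested. Dissociation stress genes differed along with the stages, so a difference in cell preparation cannot be told apart from one of stage either. The part of these shifts in the results that follow was not tested.

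**Figure D1:**
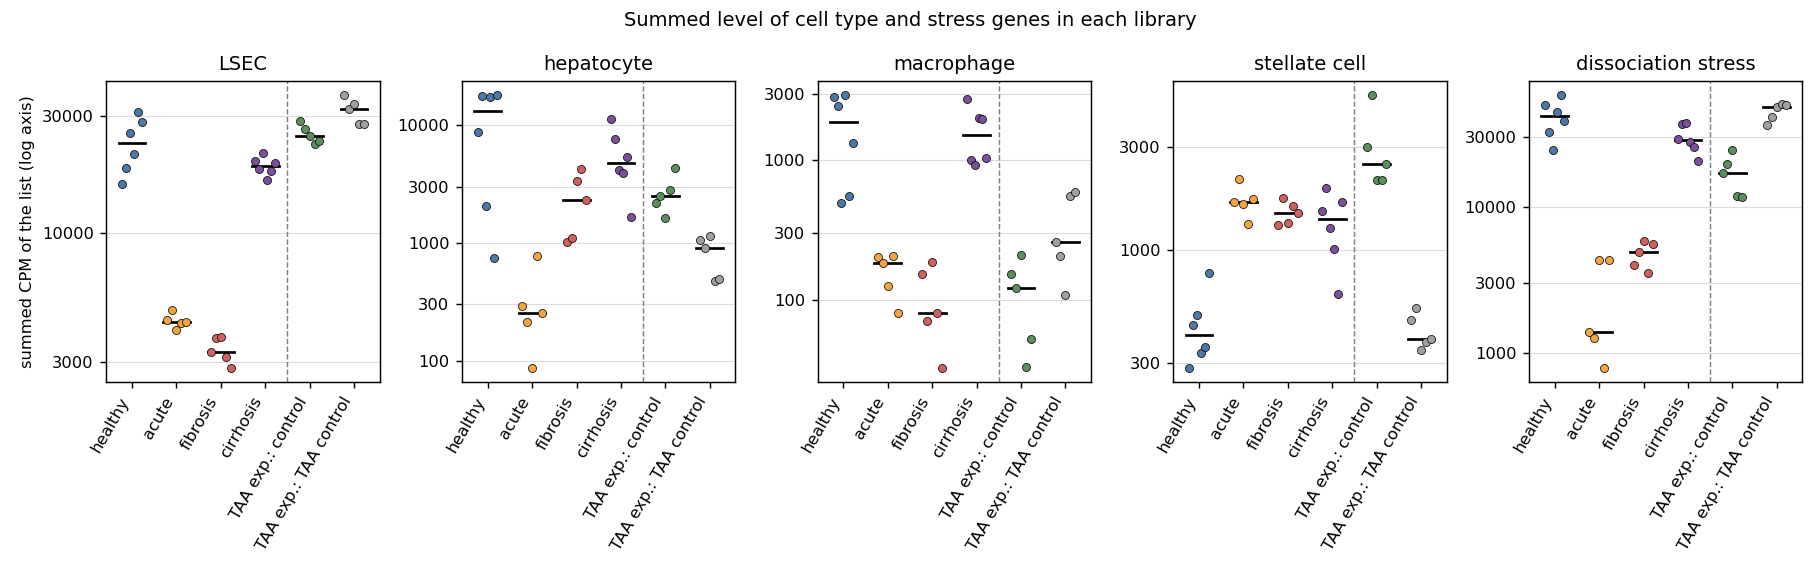
Summed CPM (log axis) of the genes of 5 lists in each of the 32 libraries, with 1 point per library and a bar at the group median; the dashed line separates the CCl4 experiment from the TAA experiment. LSEC markers and dissociation stress genes of the acute and fibrosis libraries lie below those of every healthy and cirrhotic library, and stellate cell markers are higher in the group labelled control than in that labelled TAA control of the TAA experiment.

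RefSeq promoters (assembly GRCr8, not the Rnor_6.0 build of the reads) were found for 6 of the 10 genes. The 250 bases upstream of the start are shown for 3 known PPAR targets, of which Cpt1a and Plin2 fell together in acute and fibrosis LSECs and Angptl4 was not called there. Capitals mark the hypoxia response core ACGTG or its complement CACGT, and no other motif searched was found in these 3 windows.
Plin2, chr5:106229019-106229268, minus strand: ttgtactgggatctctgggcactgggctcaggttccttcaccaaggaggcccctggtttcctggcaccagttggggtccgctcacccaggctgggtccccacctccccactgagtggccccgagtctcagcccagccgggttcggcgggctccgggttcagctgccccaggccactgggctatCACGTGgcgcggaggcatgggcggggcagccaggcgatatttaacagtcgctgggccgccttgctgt
Cpt1a, chr1:209995910-209996159, plus strand: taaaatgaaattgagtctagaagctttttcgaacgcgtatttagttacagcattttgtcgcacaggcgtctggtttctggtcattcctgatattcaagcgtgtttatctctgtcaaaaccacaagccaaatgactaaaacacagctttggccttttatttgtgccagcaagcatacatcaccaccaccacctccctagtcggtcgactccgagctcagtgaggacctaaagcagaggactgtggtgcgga
Angptl4, chr7:15258682-15258931, minus strand: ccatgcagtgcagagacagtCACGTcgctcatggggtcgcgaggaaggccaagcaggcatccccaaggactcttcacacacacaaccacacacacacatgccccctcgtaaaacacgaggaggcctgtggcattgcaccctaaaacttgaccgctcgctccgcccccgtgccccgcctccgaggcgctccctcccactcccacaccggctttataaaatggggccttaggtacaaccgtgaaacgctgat
In Plin2 the matches on both strands overlap at positions -67 to -62 from the start, and in Angptl4 the match lies at -230 to -226. Lipg, whose window is not shown, also held overlapping matches on both strands, at -177 to -172. In Plin2 and Lipg the overlapping matches are a single palindromic site, CACGTG, counted once on each strand. ACGTG was present in 16.6% of 33469 promoter windows of the same length, searched on both strands. The PPAR response element, 2 direct repeats of AGGTCA with 1 base between them, was in 0.0508% of windows and in none of the windows of the 6 genes. An exact match that rare was unlikely in so few windows, and bases outside the 250 were not searched, so its absence does not bear on PPAR binding. Its half-site AGGTCA was in 14.1% of windows and again in none of those of the 6 genes. The AP-1 motif TGANTCA was in 6.34% of windows and in 1 of the 2 Pparg windows. A second Plin2 window held none of the motifs. Ppard, Fabp4, Lpl and Gpihbp1 had no entry.

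Against healthy LSECs, Ppard, Gpihbp1, Cpt1a, Plin2 and Lipg fell and Lpl rose in the acute stage. In fibrosis the same 5 genes and Ppara fell, and Lpl and Pparg rose. In cirrhosis Lpl and Fabp4 rose and Gpihbp1 fell, while the other 7 genes were not called. So 6 of 10 genes were called in acute LSECs, where 73.3% of all genes tested were called, 8 of 10 in fibrosis against 70.2%, and 3 of 10 in cirrhosis against 51.8%. By direction, the 5 falls in acute stand beside 37.9% of all genes and the 6 in fibrosis beside 34.9%. In each of these stages 5 genes lay below every healthy library, which was so for 30.8% of all genes in acute and 29.1% in fibrosis. In cirrhosis Lpl lay above every healthy library, as did 10.1% of all genes, and Gpihbp1 below, as did 17%. The median log2 fold-change of the 10 genes was -1.22 in acute, -1.27 in fibrosis and -0.14 in cirrhosis, and over all genes it was -0.09, -0.03 and 0.07. These 3 comparisons share the healthy libraries.

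**Figure D2:**
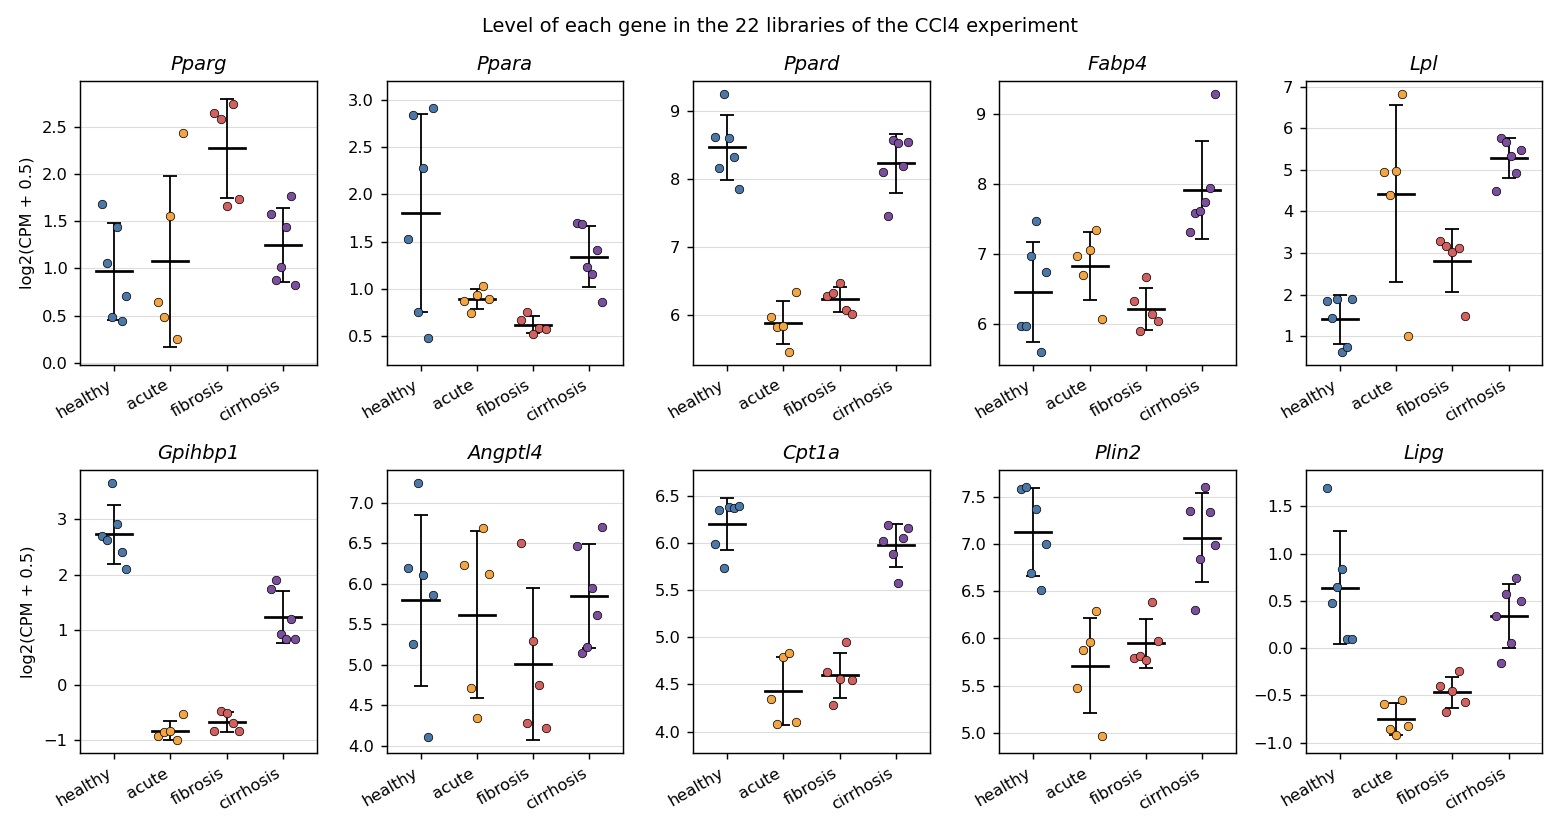
Level of each of the 10 genes as log2(CPM + 0.5) in the healthy, acute, fibrosis and cirrhosis libraries, with 1 point per library, a bar at the mean and whiskers of 1 SD; each panel has its own vertical range. Ppard, Gpihbp1, Cpt1a, Plin2 and Lipg are low in both early stages, without overlap with healthy, and Lpl is higher in cirrhosis than in every healthy library.

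**Figure D3:**
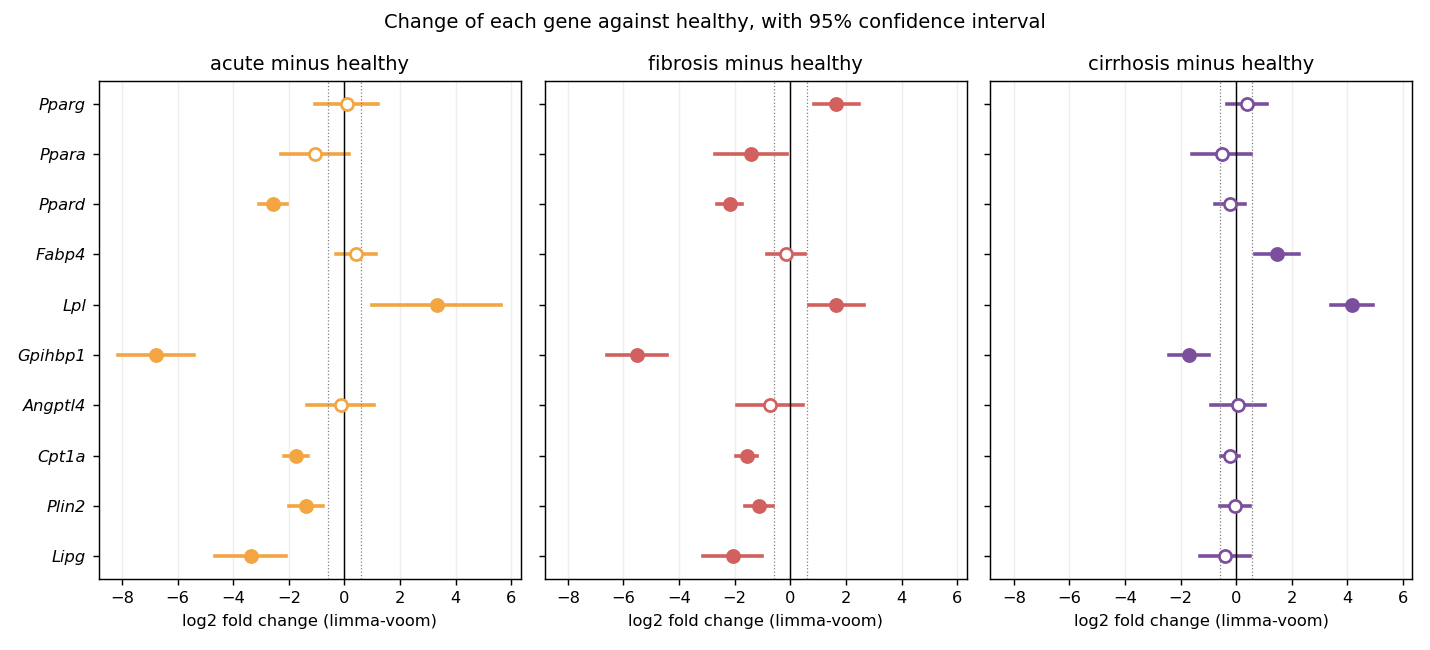
Log2 fold-change of each gene against healthy in acute, fibrosis and cirrhosis LSECs (limma-voom), with the 95% confidence interval as a line; filled points are called, open points are not, and dotted lines mark a fold-change of 1.5. Gpihbp1 shows the lowest values in acute and fibrosis, -6.78 and -5.51, and Lpl the highest in cirrhosis, 4.16.

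Among the receptors, Ppard, a widely expressed PPAR, had a mean of 373 ± 133 CPM in healthy LSECs (SD, n = 6), with a lowest value of 231.5, a median of 356 and a highest of 612. Acute libraries held 62.6, 56.3, 56.5, 43.6 and 80.8 CPM, and fibrosis libraries 77.1, 79.5, 88.1, 67.2 and 63.9 CPM. All 10 libraries of both early stages lay below every healthy one. Ppard was 5.92-fold lower in acute (log2 -2.57 ± 0.24 SE, adjusted p = 1.061e-06) and 4.55-fold lower in fibrosis (-2.19 ± 0.21, adjusted p = 2.156e-06). In cirrhosis it ranged from 174.8 to 382 CPM with a median of 333 and overlapped healthy. Its difference from healthy was -0.23 on the log2 scale, with a 95% confidence interval from -0.77 to 0.31.

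Pparg, the PPAR known for adipocyte differentiation, was low in count, with 22 to 81 counts per healthy library. Its levels were 0.859 to 2.71 CPM in healthy, with a median of 1.36. In fibrosis they were 5.74, 5.46, 2.66, 6.17 and 2.83 CPM, and 4 of these 5 values exceeded the highest healthy one. Pparg was thus 3.15-fold higher in fibrosis than in healthy LSECs (adjusted p = 0.00157). The acute libraries spread from 0.691 to 4.89 CPM, the highest being replicate 8, and the difference from healthy was 0.08 with an interval from -1.06 to 1.22. Pparg in cirrhosis, 1.26 to 2.89 CPM, was 2.33-fold lower than in fibrosis (adjusted p = 0.00295). Among the 10 genes Pparg alone was called between fibrosis and acute, 3.12-fold higher in fibrosis (adjusted p = 0.0388), where 11% of all genes were called and 10.2% were higher. With edgeR's quasi-likelihood test its adjusted p was 0.112, and leaving out acute replicate 1, 2 or 4 or fibrosis replicate 12, 13 or 16 also ended the call (adjusted p from 0.0784 to 0.0989).

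Ppara, the PPAR that drives fatty acid oxidation in hepatocytes, had a wide spread in healthy libraries. Replicates 1 to 6 held 2.38, 6.68, 1.19, 4.36, 0.894 and 7.05 CPM of Ppara, and the summed hepatocyte markers of the same libraries were 8785, 17500, 2036, 17350, 749 and 18080 CPM. Among these healthy libraries the 3 with the most hepatocyte marker RNA were the 3 highest in Ppara. The cirrhotic libraries had the same order in both, from replicate 1 (2.75 CPM of Ppara, sum 11280 CPM) through 2, 5, 3 and 4 to replicate 6 (1.31 and 1670 CPM). In acute, replicate 4 was highest in both, but replicate 3, with the lowest sum (86.5 CPM), held 1.42 CPM of Ppara. The fibrosis libraries, with 28 to 38 Ppara counts each, had another order. Ppara was 0.931 and 1.01 CPM in replicates 15 and 16, whose hepatocyte sums were 3318 and 4259 CPM. It was 1.09 and 1.19 CPM in replicates 12 and 13, whose sums were 1020 and 1102 CPM. Ppara ranged from 1.17 to 1.54 CPM in acute, from 0.931 to 1.19 in fibrosis and from 1.31 to 2.75 in cirrhosis. It was called lower in fibrosis (2.66-fold, adjusted p = 0.0468), a call that 12 of the alternative settings ended, with adjusted p-values from 0.0548 to 0.161. Among them, 9 each left out 1 library, namely any of the 5 fibrosis replicates or healthy replicate 1, 2, 4 or 6. In acute LSECs it was not called (log2 -1.06, adjusted p = 0.104), while edgeR and DESeq2 did call it (adjusted p = 0.0219 and 0.00922). The part of hepatocyte RNA in the Ppara values was not tested.

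Of the lipolysis genes, Gpihbp1 was close to 0 in both early stages. Healthy libraries held 3.77 to 12.2 CPM with a median of 5.81. In acute LSECs the counts were 1, 2, 2, 0 and 6 per library, and in fibrosis LSECs 21 counts were found over all 5 libraries. No early library reached 0.22 CPM. From pooled counts, 1103 in healthy against 11 in acute, the healthy level was 105.0 times that of acute LSECs (95% exact interval 58.6 to 211, counting error only), and it was 49.6 times that of fibrosis (32.3 to 80.5). Cirrhotic libraries held 2.83, 3.24, 1.40, 1.28, 1.78 and 1.29 CPM, each above all early libraries and below all healthy ones. In cirrhosis Gpihbp1 was 3.22-fold lower than in healthy (log2 -1.69 ± 0.34, adjusted p = 0.00124). GPIHBP1 is a protein of capillary endothelium, and 6 capillary markers summed to 1302 to 4389 CPM in healthy, 87.8 to 172.5 in acute, 92.5 to 130.4 in fibrosis and 1620 to 3869 in cirrhotic libraries. Most of the healthy and cirrhotic sums was Vwf, with means of 2304 and 2353 CPM. Of these markers, 1 rose and 4 fell in acute and in fibrosis, and 3 rose and 1 fell in cirrhosis. Cav1 rose in each stage, from a mean of 32.3 CPM in healthy to 107.9 in acute, 83.5 in fibrosis and 71.0 in cirrhosis. Their part in the Gpihbp1 values was not tested.

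Lpl, the ligand of GPIHBP1, went the other way in cirrhosis. It held 1.05 to 3.24 CPM in healthy libraries with a median of 2.64, and 22.1, 53.7, 50.6, 39.8, 29.7 and 44.1 CPM in cirrhotic ones. The groups did not overlap, and the difference was 17.9-fold (log2 4.16 ± 0.35, adjusted p = 2.428e-05). In acute LSECs Lpl held 30.2, 20.4, 31.0, 112.6 and 1.52 CPM, so that 4 libraries were above every healthy one and replicate 8 was within their range. The acute rise was 9.95-fold (adjusted p = 0.0133, log2 3.31 with an interval from 0.98 to 5.65), and the log2 difference was 4.21 without replicate 8 and 2.70 without replicate 4. In fibrosis the values were 9.24, 8.52, 7.65, 8.24 and 2.31 CPM, a 3.16-fold rise (adjusted p = 0.00518) that was not called in a single fit over the 4 CCl4 groups (adjusted p = 0.158).

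LPL is also made by macrophages, stellate cells and adipocytes, so their markers are given beside it. Summed macrophage markers were 499 to 2956 CPM in healthy, 81.2 to 206 in acute, 32.5 to 189 in fibrosis and 926 to 2746 in cirrhosis. Stellate cell markers were 284 to 785, 1315 to 2133, 1301 to 1746 and 626 to 1927 CPM in the same order, and most of the acute and fibrosis sums was Reln, whose mean was 166.8 CPM in healthy, 1678 in acute and 1378 in fibrosis. Of these 9 markers, 1 rose and 6 fell in acute, 3 rose and 3 fell in fibrosis, and 7 rose in cirrhosis. Of 5 adipocyte genes, Lep and Plin1 were under 0.1 CPM in every library, Adipoq reached 0.266 CPM in fibrosis and Retn at most 0.446 CPM. Cidec, a lipid droplet protein also known in hepatocytes, had means of 21.7 CPM in healthy, 0.389 in acute, 5.85 in fibrosis and 6.76 in cirrhosis. The part of the RNA of these cell types in the Lpl values was not tested.

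Angptl4, the LPL inhibitor, varied within groups. Its levels were 16.7 to 151.9 CPM in healthy, 19.7 to 103 in acute, 18.2 to 90.7 in fibrosis and 35.0 to 104 in cirrhosis. All groups overlapped and no comparison among the 4 groups called it, although leaving out fibrosis replicate 12 gave a called rise from fibrosis to cirrhosis (log2 1.23, adjusted p = 0.00746) and leaving out healthy replicate 5 a called fall in fibrosis (log2 -1.08, adjusted p = 0.0464). The interval of its log2 difference from healthy ran from -1.34 to 1.07 in acute, from -1.91 to 0.46 in fibrosis and from -0.90 to 1.04 in cirrhosis, so changes of 1.5-fold are within these intervals.

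Lipg, endothelial lipase, was scarce at 0.568 to 2.75 CPM in healthy libraries. It held 0.163, 0.0545, 0.0278, 0.184 and 0.0632 CPM in acute and 0.258, 0.125, 0.233, 0.344 and 0.175 CPM in fibrosis LSECs. These lay below every healthy library but rest on 19 counts in acute and 38 counts in fibrosis over all libraries, against 205 in healthy. The pooled healthy level was 11.3 times that of acute (95% exact interval 7.07 to 19.2) and 5.10 times that of fibrosis (3.59 to 7.41). The falls were called in both stages (adjusted p = 0.000195 and 0.00201). In cirrhosis Lipg overlapped healthy at 0.397 to 1.18 CPM.

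Fabp4, a fatty acid chaperone of capillary endothelium, adipocytes and macrophages, held 48.2 to 177.6 CPM in healthy LSECs with a median of 84.7. The acute libraries held 125.8, 103.5, 133, 161.7 and 66.5 CPM and the fibrosis libraries 80.0, 59.1, 101, 70.2 and 65.7 CPM, all within the healthy range. In cirrhosis it held 159, 191, 197, 215, 246 and 627 CPM, and 5 of 6 values exceeded the highest healthy one. Fabp4 was 2.79-fold higher in cirrhosis (log2 1.48 ± 0.37, adjusted p = 0.00458). Without replicate 6, which stood apart, the log2 difference was 1.20 and still called. Of the 6 capillary markers, 3 rose in cirrhosis (Cd34, Cav1 and Aplnr) and 1 fell (Plvap), while none of 9 macrophage markers was called. Their part in the Fabp4 values was not tested.

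Cpt1a, which admits fatty acids to mitochondria, and Plin2, which coats lipid droplets, followed the same order of groups. Cpt1a held 52.8 to 83.3 CPM in healthy libraries with a median of 81.7. The acute libraries held 19.8, 16.5, 27.2, 27.9 and 16.7 CPM and the fibrosis libraries 24.4, 19.0, 23.0, 30.4 and 23.0 CPM. Every early library lay below every healthy one, and Cpt1a was 3.38-fold lower in acute (adjusted p = 6.22e-06) and 2.95-fold lower in fibrosis (adjusted p = 6.106e-06). Plin2 ranged from 91.1 to 194 CPM in healthy, from 30.8 to 77.7 in acute and from 54.0 to 83.1 in fibrosis. It was 2.61-fold lower in acute (adjusted p = 0.000603) and 2.17-fold lower in fibrosis (adjusted p = 0.000977). In cirrhosis Cpt1a held 47.0 to 72.2 CPM and Plin2 78.1 to 193 CPM, both overlapping healthy, with log2 intervals from -0.55 to 0.11 and from -0.60 to 0.50. Macrophage markers summed to 2845, 2457, 499, 2956, 559 and 1342 CPM in healthy replicates 1 to 6. Plin2 held 191, 194, 103, 165, 91.1 and 127 CPM in these libraries. Fibrosis replicate 15 had the highest macrophage sum of its group (189 CPM) and the lowest Plin2 (54.0 CPM). Most macrophage and hepatocyte markers fell in both early stages, and their part in the Cpt1a and Plin2 values was not tested.

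Between stages, 9 of 10 genes differed between cirrhosis and fibrosis, where 63.8% of all genes were called and 34.3% were higher in cirrhosis. Of these, 8 were higher in cirrhosis and Pparg was lower. Gpihbp1 was 14.7-fold, Lpl 5.91-fold, Ppard 4.05-fold, Fabp4 3.27-fold, Lipg 3.23-fold, Cpt1a 2.63-fold, Plin2 2.18-fold and Ppara 1.94-fold higher. Of the 10 genes, 7 lay above every fibrosis library in all cirrhotic libraries, as did 30.8% of all genes tested. Angptl4 was not called (log2 0.85, interval from -0.08 to 1.78). Against acute, 6 of 10 genes were called in cirrhosis, all higher, where 69.3% of all genes were called and 37.6% were higher. Of the 10 genes, 5 lay above every acute library in all cirrhotic libraries, as did 33.4% of all genes tested. The 6 called genes were Gpihbp1 at 34.4-fold, Lipg at 7.83-fold, Ppard at 5.16-fold, Cpt1a at 2.95-fold, Plin2 at 2.57-fold and Fabp4 at 2.14-fold. Ppara missed only the fold threshold (1.49-fold, log2 0.57, adjusted p = 0.0386) and was called higher under 12 alternative settings, with log2 differences from 0.57 to 0.76. LSEC markers moved in the same stages, with 10 of 11 higher in cirrhosis than in fibrosis and 10 of 11 higher than in acute, and macrophage markers too, with 9 of 9 in both. Between fibrosis and acute, Gpihbp1 and Lipg did not pass the low-count filter. Without acute replicate 8, Lpl (log2 -2.52, adjusted p = 0.0188) and Fabp4 (log2 -0.73, adjusted p = 0.0108) were also called lower in fibrosis.

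Other genes of fatty acid handling were taken from 6 lists, with 35.5% of all genes called higher and 37.9% called lower in acute, 35.3% and 34.9% in fibrosis and 27.1% and 24.7% in cirrhosis. Of 12 lipoprotein lipolysis genes, none rose and 11 fell in acute, 1 rose and 7 fell in fibrosis, and 1 rose and 3 fell in cirrhosis. Apoc3, an apolipoprotein that restrains LPL, fell from 523.7 ± 361.7 to 7.10 ± 4.13 CPM in acute. Of 19 beta-oxidation genes tested, 1 rose and 15 fell in acute, 2 rose and 15 fell in fibrosis, and 7 fell in cirrhosis. Hadhb, a subunit of the trifunctional protein of beta-oxidation, rose by 1.51 on the log2 scale in acute. Hepatocyte markers moved with these lists: 8 of 8 fell in acute, 6 of 8 in fibrosis and 1 of 8 in cirrhosis. Their part in these counts was not tested.

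Lipid droplet genes showed 2 rises and 12 falls among 15 tested in acute, 2 and 11 in fibrosis, and 9 falls among 16 in cirrhosis. Lipe, hormone-sensitive lipase, held 640 ± 159 CPM in healthy LSECs and 6.29 ± 3.13 in acute, and Fitm2, a droplet assembly factor, rose by 1.41 on the log2 scale. Lipe was still lower in cirrhosis, at 238 ± 21.6 CPM (log2 -1.39, adjusted p = 0.000105). Of 13 genes of uptake and activation tested in acute LSECs, 2 rose and 8 fell. Of the 14 tested in each later stage, 3 rose and 6 fell in fibrosis, and 5 rose and 3 fell in cirrhosis. Acsl3, an acyl-CoA synthetase, rose from 7.04 ± 3.32 to 45.8 ± 4.13 CPM in fibrosis, and Fabp1, the liver fatty acid binding protein that also counts among the hepatocyte markers, fell by 6.60 on the log2 scale in acute.

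Among 13 PPAR partners and coregulators, 3 rose and 6 fell in acute, 5 rose and 6 fell in fibrosis, and 5 rose and 2 fell in cirrhosis. Rxra, the common PPAR partner, fell from 203 ± 44.4 CPM in healthy to 26.1 ± 2.70 in fibrosis and was 72.7 ± 8.10 in cirrhosis (log2 -2.87 and -1.45, both called). Nrip1, a corepressor of nuclear receptors, rose from 66.1 ± 29.2 to 261 ± 86.1 CPM in acute. Fatty acid synthesis genes had 1 rise and 8 falls among 12 tested in acute and in fibrosis, and 1 rise and 5 falls among 13 in cirrhosis. Scd, a fatty acid desaturase, fell by 4.79 on the log2 scale in acute, and Acaca, acetyl-CoA carboxylase, rose by 1.35. Scd ranged from 12.6 to 567 CPM in healthy and from 1.33 to 15.7 CPM in acute, so its groups overlapped. The part of hepatocyte RNA in the counts of these other lists was not tested either.

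**Figure D4:**
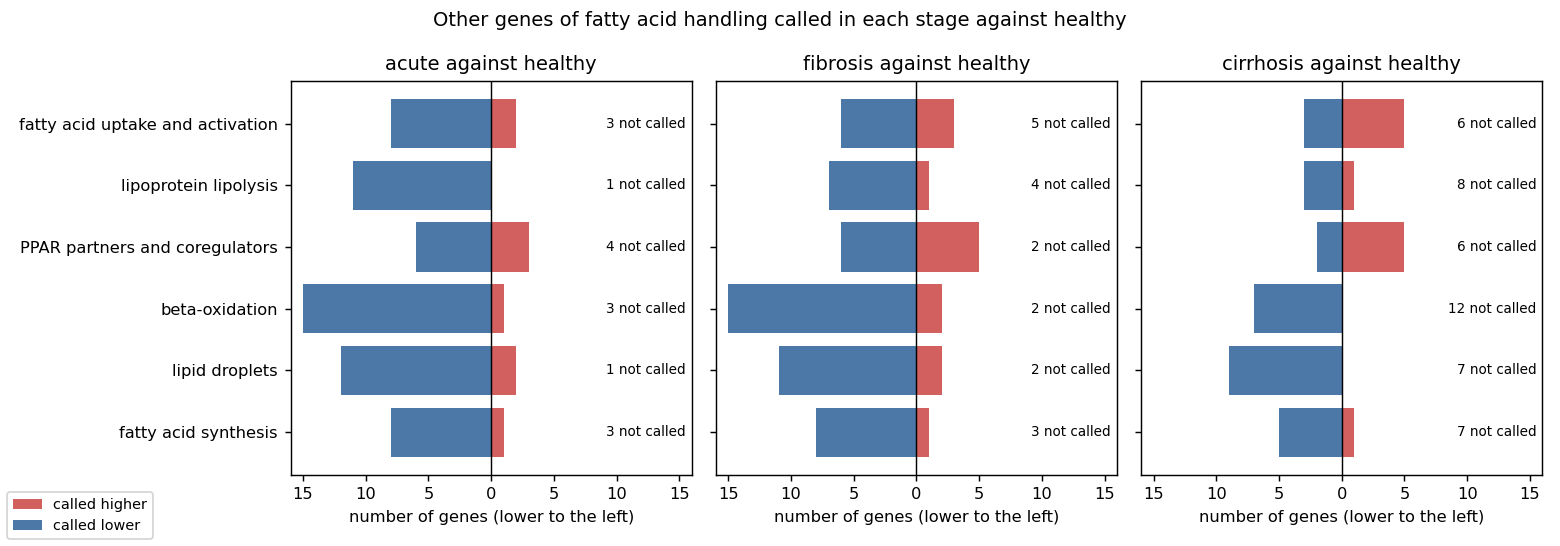
Number of genes of 6 lists called higher (to the right) and lower (to the left) in acute, fibrosis and cirrhosis LSECs against healthy, with the number tested but not called at the right edge. Falls outnumber rises in every list in acute and fibrosis, and in cirrhosis rises outnumber falls in uptake and activation and in PPAR partners, each with 5 rises.

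In the TAA experiment, 5 of 9 genes tested were called, all lower in the libraries labelled TAA control than in those labelled control, where 27.6% of all genes were called and 14.9% were called lower. Lipg did not pass the low-count filter. Fabp4 held 395, 509.6, 450.5, 421 and 697 CPM in the group labelled control and 39.9, 63.6, 37.7, 38.2 and 41.3 CPM in the group labelled TAA control, an 11.2-fold difference (adjusted p = 1.485e-06). Lpl held 17.4, 29.3, 18.4, 44.8 and 35.5 CPM against 2.48, 1.44, 0.362, 1.82 and 1.68 CPM, a 20.8-fold difference (adjusted p = 0.000202). Neither gene overlapped between the groups. Angptl4 ranged from 31.9 to 51.8 CPM against 8.07 to 13.9 CPM (3.81-fold, adjusted p = 2.183e-05) and Ppard from 316 to 419 against 180.4 to 242.5 CPM (1.76-fold, adjusted p = 0.000193), again without overlap, as did 17.4% of all genes in that direction.

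Ppara, with 13 to 54 counts against 3 to 16, was called too (2.63-fold, adjusted p = 0.0284). Its groups overlapped, and the call was lost without replicate 2 or 5 of control or replicate 10, 13 or 15 of TAA control (adjusted p from 0.0508 to 0.0691). Cpt1a, at 39.1 to 50.5 against 42.1 to 53.8 CPM, had a log2 difference of 0.03 with an interval from -0.20 to 0.25, and Plin2 one of 0.11 with an interval from -0.11 to 0.33. Both intervals exclude a 1.5-fold change. Pparg and Gpihbp1 were not called, with intervals from -1.23 to 0.86 and from -1.74 to 0.04, and Gpihbp1 was called lower without replicate 1 of control (log2 -1.15, adjusted p = 0.00858). Stellate cell markers summed to 2107 to 5237 CPM in the group labelled control and 344 to 537 in the group labelled TAA control, dissociation stress genes to 11610 to 24690 and 36400 to 50500, hepatocyte markers to 1618 to 4340 and 477 to 1152, and LSEC markers to 23080 to 28520 and 27650 to 36510. Capillary endothelium markers summed to 1472 to 2541 CPM in control and 508.9 to 633 in TAA control, and of 6 of them 1 was higher and 4 were lower in TAA control. Replicate 14 of TAA control, with the least hepatocyte marker RNA (477 CPM), was the highest of its group in Ppara at 0.632 CPM, from 16 counts. In the group labelled control, replicate 5 had the most hepatocyte marker RNA (4340 CPM) and the most Ppara (1.61 CPM, 54 counts). The part of these lists in the differences was not tested. Replicates 14 and 15 of TAA control were closer to each other (chi-square per degree of freedom 3.05) than any other pair of one group (at least 25.3) but differed beyond sampling noise and were kept apart. That difference does not exclude that both came from the same rat. In that case the p-values of the TAA experiment would count that rat as 2 libraries.

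**Figure D5:**
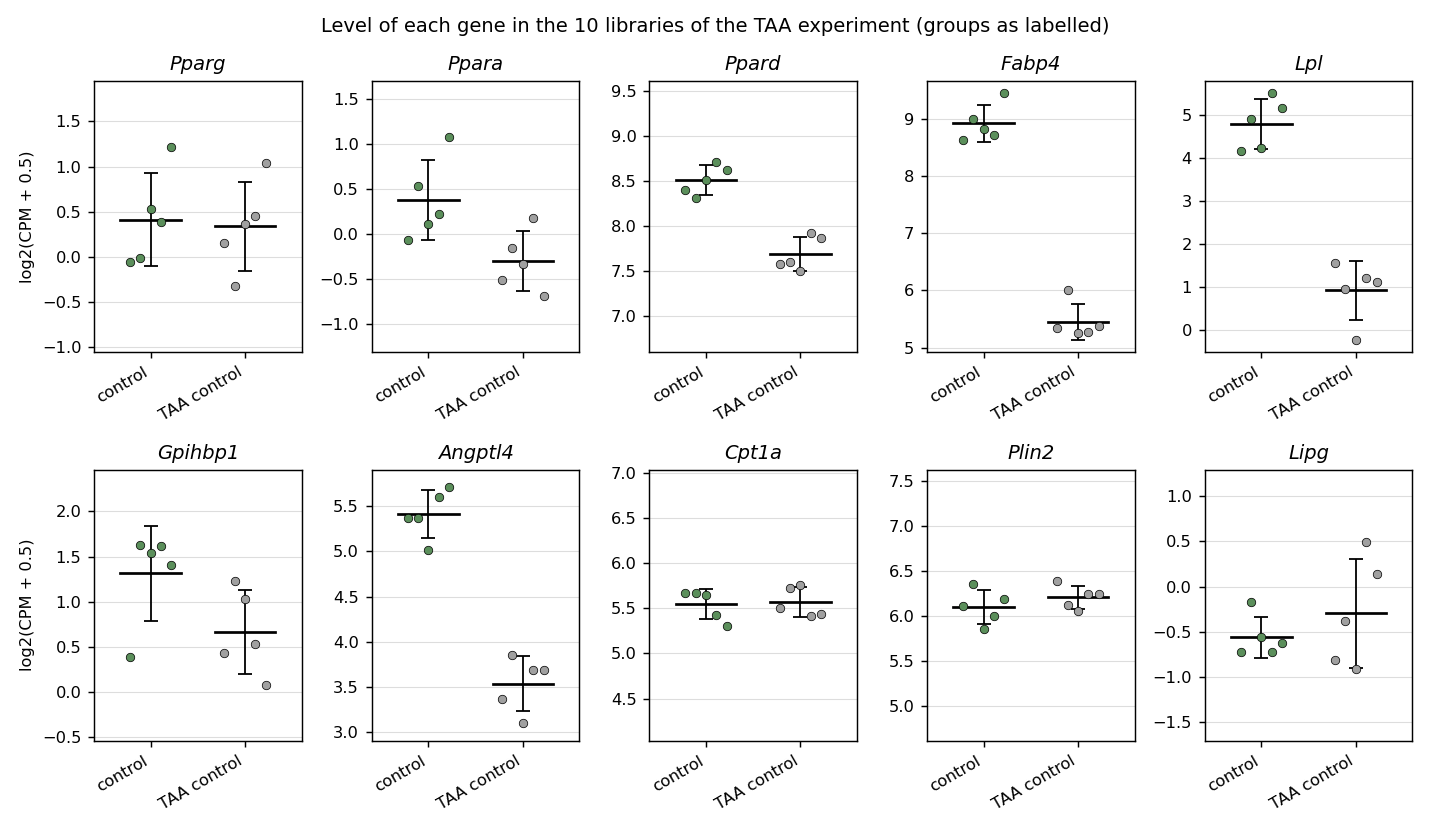
Level of each of the 10 genes as log2(CPM + 0.5) in the TAA experiment, for the groups labelled control and TAA control, with 1 point per library, a bar at the mean and whiskers of 1 SD; each panel has its own vertical range. Ppard, Fabp4, Lpl and Angptl4 do not overlap between the groups, and Cpt1a and Plin2 overlap throughout.

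The genes whose log2 CPM was most like that of each gene over the 22 CCl4 libraries, among 8525 candidates, are given as a description, since the points share their stages. Gpihbp1 was followed by Mfge8 (r = 0.987), Marc2 (0.986) and Eng (0.985), Eng being the endothelial TGF-beta co-receptor endoglin, and Ppard by Cd40 (0.984), Adamts4 (0.983) and Icam4 (0.982). Mean Mfge8 was 2942 CPM in healthy, 87.7 in acute, 101.7 in fibrosis and 602 in cirrhosis, the same order as Gpihbp1. Cpt1a was nearest to Bbs9 and Siae (both 0.968) and Apol3 (0.964), Plin2 to Tnfsf13 (0.933), Mmp19 (0.921) and Ifi30 (0.918), and Lipg to Tnfrsf1b (0.930), Nfkbid (0.929) and Tspo (0.926). Ppara was nearest to Hibadh (0.945), Slc25a15 (0.941) and Aldh3a2 (0.938). Weaker likeness was found for Lpl with Mycbp (0.828), Rbm45 (0.826) and Abracl (0.816), for Pparg with Tnfsf18 (0.784), Abtb2 and Bcl6 (both 0.762), for Fabp4 with Rsu1 (0.777), Itpr1 (0.764) and Ptgr2 (0.754), and for Angptl4 with Il1b (0.596), Itgad (0.595) and Manf (0.590).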

How the data were processed

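Per the labels, LSEC RNA was read from poly(A) libraries and processed with FastQC, Trim Galore, STAR (build Rnor_6.0) and RSEM. The authors deposited RSEM expected counts (estimated counts, not normalized) for 32623 genes per library, of which 10.3% to 12.4% in a library were not whole. Because RSEM shares out multi-mapping reads by estimate, counts of close gene copies are uncertain. Depth was 25646531 to 46464289 counts per library, and intervals on pooled counts cover counting error only.

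Expected counts were rounded. Each comparison was fitted with limma-voom (limma 3.58.1, edgeR 4.0.16, R 4.3.3) on the libraries of the 2 groups alone, with TMM factors and filterByExpr, and p-values were adjusted by Benjamini-Hochberg over all genes tested. The methods of the study use an unadjusted p-value with the same fold-change of 1.5, which was an alternative. CPM were scaled with TMM over the 22 CCl4 libraries and, separately, over the 10 TAA libraries, and levels are not compared between the experiments. Log2 CPM used a pseudocount of 0.5. DESeq2 1.42.0 and edgeR's quasi-likelihood test were alternatives. Where the labels do not state separate animals, p-values measure the spread between these libraries.

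Groups came from the labels, except that the weeks of cirrhosis came from the design text. The TAA experiment is compared as labelled, TAA control minus control. The 10 genes were chosen by name and all other lists with earlier results of these data known. Named further genes are, per list, the largest called rise and fall against healthy over the 3 stages (mean log2 CPM not under 3), and the 3 genes most like each member. One gene that this rule names is not reported here. The list symbols Acaa1a, Scd1 and Pecam1 had no match. No gene lengths were used, so levels are not compared between genes. On simulated data for cirrhosis against healthy (14472 genes), limma-voom recovered 76% of 4-fold and 12% of 2-fold changes, and 3.3% of its calls were not changed. For the TAA experiment (14471 genes) it recovered 98% and 76%, and 7.94% of its calls were not changed. In each simulation 200 genes were changed, as many up as down, with the spread of the healthy or control libraries alone. Far more genes were called in the real data, 51.8% in cirrhosis against healthy, so these rates are not the error rates of these data.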

Additional observations from a re-analysis of the deposited data

Results flagged for a closer look

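Among 72 groups of 5 or 6 libraries examined, 6 held a library farther from the others than Dixon's 95% critical value, and chance flags about 3.6 of 72. In the CCl4 experiment these were Fabp4 in cirrhosis replicate 6 (626.7 CPM), Lpl in fibrosis replicate 17 (2.305 CPM) and the total of acute replicate 4 (36916992 counts). In the TAA experiment they were Fabp4 in replicate 12 of TAA control (63.63 CPM), Gpihbp1 in replicate 1 of control (0.8109 CPM) and the total of replicate 5 of control (32631606 counts).

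Differences between stages, each tested directly with limma-voom and given on the log2 scale, mark where the difference from healthy was not the same at 2 stages. Pparg was 1.64 higher in fibrosis than in acute, a call that depends on single libraries, and changed by -1.22 from fibrosis to cirrhosis. From fibrosis to cirrhosis, Ppara rose by 0.95, Ppard by 2.02, Fabp4 by 1.71, Lpl by 2.56, Gpihbp1 by 3.87, Cpt1a by 1.39, Plin2 by 1.13 and Lipg by 1.69. Cirrhosis exceeded acute by 2.37 for Ppard, 1.10 for Fabp4, 5.10 for Gpihbp1, 1.56 for Cpt1a, 1.36 for Plin2 and 2.97 for Lipg. The LSEC markers and dissociation stress genes differed between the same stages, and their part was not tested.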

How the results depend on the processing

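Of 67 values of single genes, 38 were called, and under 841 alternatives of these 813 kept call and direction and 28 lost the call, in 6 pairs of gene and comparison, Ppara in fibrosis against healthy and Pparg in fibrosis against acute most often. Of 645 alternatives of values not called, 27 were called, in 8 such pairs, 12 of them Ppara in cirrhosis against acute. No called value changed sign. Counts of the 10 genes stayed within 1.5 times except between fibrosis and acute, where 1 was called, 0 with edgeR's quasi-likelihood test, 3 with weights per library and 0 to 3 with 1 library left out. The count of all genes there was 1529, and it was 2827 without a fold threshold, 1002 with a mean count filter, 2346 with weights, 746 in one fit over the CCl4 groups and 1012 to 2166 with 1 library left out (without acute replicate 1 and 8, respectively). In the TAA experiment 3971 genes were called, and 7141 without a fold threshold. The cause was not tested, apart from the thresholds themselves.

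Scaling by library size alone moved the median log2 difference of all genes from -0.09 to 0.32 in acute, from -0.03 to 0.37 in fibrosis and from 0.07 to 0.42 in cirrhosis against healthy, and the share of calls that were higher from 48.4% to 58.2%, from 50.3% to 60.9% and from 52.3% to 71.3%. Fabp4 was then called higher in acute (log2 0.82, adjusted p = 0.0434). The same replicate numbers occur in healthy, acute and cirrhosis, which are different rats, and the correlations of same-numbered libraries ran from -0.24 to 0.29, with no comparison in which every library was nearest to its own number. With the replicate number as a block, 7 of the 10 genes were called in acute, 3 in cirrhosis against healthy and 5 in cirrhosis against acute, where Fabp4 (log2 0.56) fell under the fold threshold. Depth limits Gpihbp1 and Lipg in acute and fibrosis.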
